A study of Homo sapiens with 5 samples.

Results

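NMI (N-myc and STAT interactor) was taken here together with STAT2, STAT3, the interferon regulatory factors IRF1, IRF2, IRF3, IRF7 and IRF9, and the kinase JAK1. These 9 genes are the members, found by their symbols in the annotation of the array. They were chosen with results of this same comparison in view, and NMI was selected on its fold, the second lowest of all genes. Their values under SAHA against DMSO are therefore given as a description and carry no test. Of the 9 members, 8 had a probe set with 1 gene, out of 19775 genes measured, and STAT2 was not analysed here. The 8 measured members had 16 probe sets, with 1 each for NMI, IRF2, IRF3, IRF7 and IRF9. A further probe set of IRF9 was annotated to a second gene as well and was left out.

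The cells were MDA-MB-231, an established human breast cancer line that has a mesenchymal form and no oestrogen receptor. One group of 3 arrays held cells given the vehicle DMSO, and the other group of 2 arrays held cells given SAHA (suberoylanilide hydroxamic acid, an inhibitor of histone deacetylases). Exposure lasted 30 h in both groups, with SAHA at 2 uM per the labels. The series asked which genes change expression in these cells under SAHA, and no interferon or other cytokine treatment is described for either group. The extract protocol in the labels mentions cells lysed after a transfection, which no other label describes. Whether these cells were transfected is therefore unknown.

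NMI is an interferon-inducible protein that binds several STAT proteins and MYC family proteins. Interferons and cytokines of the IL6 family bind receptors that carry JAK kinases. The kinases phosphorylate STAT proteins, which move to the nucleus, and STAT2 and IRF9 are parts of a complex that binds the interferon-stimulated response element (ISRE) of antiviral genes. STAT dimers bind a different element, the gamma-activated sequence (GAS). IRF3 and IRF7 act further up, turning on interferon genes once sensors of foreign nucleic acid are triggered.

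Values are RMA intensities, read on the log2 scale, and all differences are SAHA minus DMSO, with the SE of the limma fit. SD is given over 3 DMSO arrays and 2 SAHA arrays throughout. Median intensity per array lay between 88.8 and 91.2, and signal over background is unknown, since the values carry no detection calls. The array labelled DMSO 1 stood apart in the difference between the 3' and 5' probe sets of ACTB, a measure of RNA integrity, at 3.29 on the log2 scale against 2.04 to 2.22 on the other arrays. Pearson's r between arrays across genes, each read from its brightest probe set, was 0.997 to 0.999 within groups and 0.979 to 0.980 between them. All 7 markers fixed for the line, among them VIM and CD44, lay between 10.21 and 14.03 on every array, while luminal markers ran from 4.41 to 10.42, with EPCAM at 10.28 ± 0.13 in DMSO at the upper end. The 3 leukocyte markers measured lay between 3.41 and 7.07, 3 endothelial ones between 3.88 and 7.67 and 3 fibroblast ones between 6.73 and 8.74. Summed log2 levels were 16.70 to 17.06 in DMSO and 15.95 to 16.09 in SAHA for the leukocyte markers, 40.82 to 41.37 and 41.40 to 41.82 for the 6 luminal ones, 22.51 to 22.54 and 22.64 to 22.67 for the fibroblast ones, and overlapped for the endothelial ones. Among the luminal markers CDH1 rose by 1.64 ± 0.15 (adjusted p = 0.00259 by limma) from a dim 4.67 ± 0.17, and its 2 probe sets averaged 0.77. EPCAM fell by 0.72 ± 0.11 (adjusted p = 0.0102) and GATA3 fell by 0.26 ± 0.06 (adjusted p = 0.0311). Their part in the results was not tested. The poly-A controls, transcripts added in fixed amounts, read higher on the SAHA arrays by a median of 0.39 (24 probe sets, 0.17 to 0.66), and centring the arrays on them moved the median of all genes from -0.03 to -0.40. That centring takes 1 offset per array from every gene. The fit counts the error of the offset, which all genes share, as separate noise of each gene. Its p-values therefore cannot be set beside the main ones, and calls with the poly-A centring are given as a description. Whether arrays of a group hold separate cultures is not stated in the labels, and p-values then cover only how far these arrays scatter, a scatter that may be technical. In cultures measured in bulk, fewer cells expressing a gene and less RNA per cell cannot be told apart.

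The promoters of NMI, IRF9 and IRF1 are shown because each holds letters that match an element of the pathway and all of these genes differed between the groups. Each sequence runs 5' to 3' on the gene's own strand, from 250 bases before to 50 bases after the start site, as given by RefSeq on GRCh38.p14, and the match is in capitals. The windows are chr2:151289619-151289918 on the minus strand for NMI, chr14:24161015-24161314 on the plus strand for IRF9 and chr5:132490724-132491023 on the minus strand for IRF1.
NMI promoter: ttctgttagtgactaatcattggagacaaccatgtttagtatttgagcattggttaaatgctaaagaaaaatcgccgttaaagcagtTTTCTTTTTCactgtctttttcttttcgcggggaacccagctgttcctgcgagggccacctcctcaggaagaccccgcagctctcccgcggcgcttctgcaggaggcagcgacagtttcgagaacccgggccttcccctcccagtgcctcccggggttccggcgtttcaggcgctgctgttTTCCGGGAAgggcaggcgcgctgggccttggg
IRF9 promoter: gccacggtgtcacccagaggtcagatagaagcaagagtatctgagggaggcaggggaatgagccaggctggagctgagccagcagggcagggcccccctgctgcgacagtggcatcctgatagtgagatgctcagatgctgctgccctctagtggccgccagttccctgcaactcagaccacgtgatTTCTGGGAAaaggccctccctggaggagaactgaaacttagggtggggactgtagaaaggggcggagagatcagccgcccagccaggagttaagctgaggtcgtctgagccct
IRF1 promoter: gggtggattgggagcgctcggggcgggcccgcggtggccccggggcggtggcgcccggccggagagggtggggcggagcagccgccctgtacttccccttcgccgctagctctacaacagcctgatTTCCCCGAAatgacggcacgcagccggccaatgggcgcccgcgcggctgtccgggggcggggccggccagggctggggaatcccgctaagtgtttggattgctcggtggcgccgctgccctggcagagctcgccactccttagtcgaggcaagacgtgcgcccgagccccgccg

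Patterns of letters for both elements were searched on both strands: GAAANNGAAA for the ISRE and TTCNNNGAA for the GAS element. The ISRE letters were found in 3.57% of 35116 promoter windows of this length, the GAS letters in 7.66%, and both in 0.439%. NMI had both: TTTCTTTTTC, the ISRE letters on the reverse strand, began 163 bases before the start, and TTCCGGGAA began 18 bases after it. IRF9 had TTCTGGGAA 63 bases before the start, and IRF1 had TTCCCCGAA 124 bases before it. The STAT3 window and the 3 windows of JAK1 held neither pattern. Of the 6 members with a promoter entry, 1 had the ISRE letters and 3 the GAS letters. A match describes letters only and is not a bound site.

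NMI fell further than any other member, which its selection on fold fixed in advance. The log2 intensity of NMI on DMSO 1, 2 and 3 was 10.74, 10.67 and 10.71, and on SAHA 1 and 2 it was 7.96 and 7.62. The arrays did not overlap, and the DMSO arrays were close together while the SAHA arrays were farther apart. On the linear scale the DMSO arrays read 1706, 1631 and 1673, and the SAHA arrays 248.6 and 197.2. The means were 10.71 ± 0.03 and 7.79 ± 0.24, a difference of -2.91 ± 0.11 (SE), or 7.54-fold lower. NMI was read from 1 probe set, so no other probe set can be set beside this value. In the ranking of all genes by this difference the one gene below NMI was SLCO4A1, an organic anion transporter, at -3.92. The next above NMI was IGFBP1, an insulin-like growth factor binding protein, at -2.69. With DMSO 1 left out, the difference of NMI was -2.90. It lay between -3.08 and -2.75 with each array left out in turn.

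**Figure D1:**
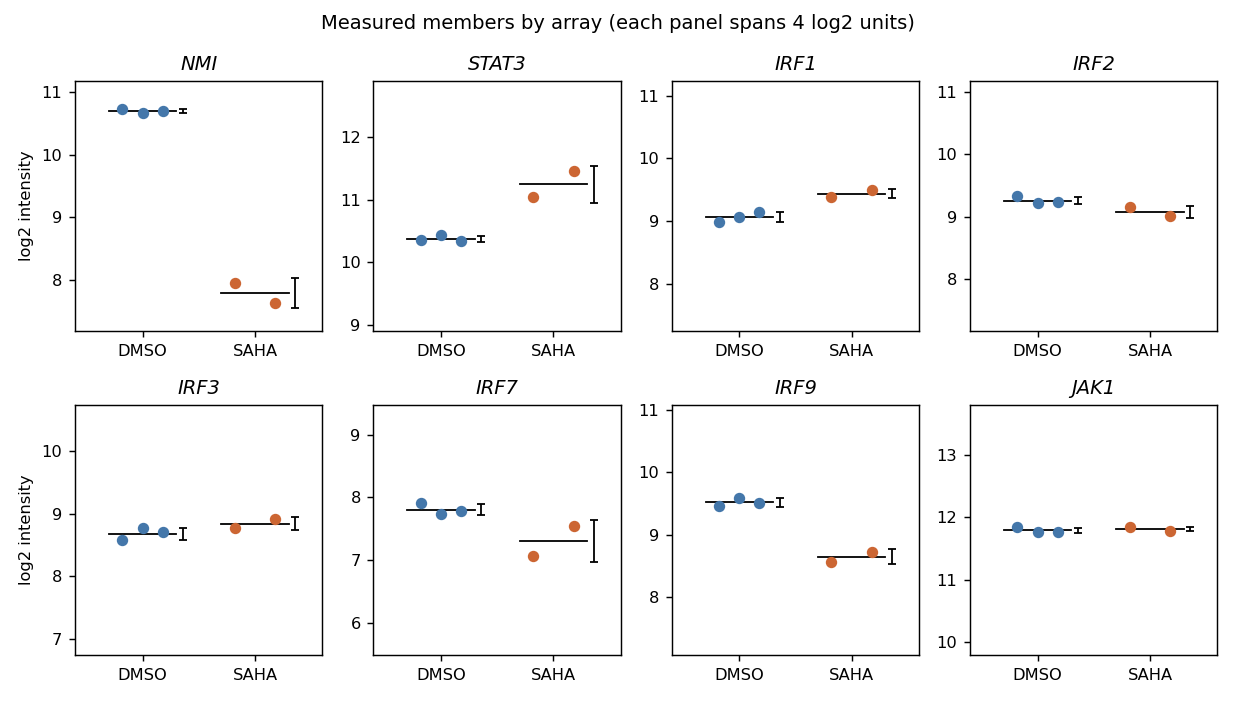
The log2 intensity of each measured member on each array, with 3 DMSO arrays in blue, 2 SAHA arrays in orange, the group mean as a line and its SD as a bar beside it. Each panel spans 4 log2 units, so that distances can be compared while levels are not: NMI drops from 10.71 to 7.79, STAT3 and IRF1 lie above DMSO, IRF9, IRF7 and IRF2 below it, and IRF3 and JAK1 overlap.

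Among the 8 measured members, 4 passed an adjusted p of 0.05 in the limma fit across all genes, 2 higher (STAT3 and IRF1) and 2 lower (NMI and IRF9). Over all genes 29.6% passed, 14.0% higher and 15.6% lower. Both SAHA arrays were outside the DMSO range on the same side for 6 members, 2 above and 4 below, against 48.1% of all genes. The median difference of the measured members was -0.08, beside -0.03 for all genes. Since the members were chosen on this contrast, nothing is read from these counts. With any 1 of the 5 arrays left out, 1 member and not 2 was called higher. Centred on the poly-A controls, 1 member was called higher (STAT3) and 5 lower.

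JAK1, the kinase bound to interferon and IL6 family receptors, did not separate the groups. On its brightest probe set the DMSO arrays read 11.84, 11.76 and 11.77 and the SAHA arrays 11.84 and 11.79. The SAHA arrays lay inside the DMSO range. The difference was 0.02 ± 0.05. The other 4 probe sets of JAK1 differed by 0.32, 0.23, -0.10 and -0.09, and none was called. Only the first of these 4 had both SAHA arrays above all DMSO arrays, at 8.33 and 8.51 against 8.00 to 8.18. Centred on the poly-A controls, the brightest probe set was at -0.35 and called lower.

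STAT3, which carries signals of IL6 family cytokines to the nucleus, was higher under SAHA on its brightest probe set. The DMSO arrays read 10.35, 10.43 and 10.34, and the SAHA arrays 11.04 and 11.46. Both SAHA arrays lay above all DMSO arrays. The difference was 0.88 ± 0.13, or 1.83-fold. The difference was 0.86 without DMSO 1 and 0.86 without DMSO 3, and in both of these fits STAT3 was no longer called.

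The 4 probe sets of STAT3 did not all point the same way. The second in brightness read 10.24, 10.19 and 10.30 in DMSO and 10.50 and 10.58 in SAHA, a difference of 0.30 ± 0.05. The third read 9.51, 9.65 and 9.80 in DMSO and 10.18 and 10.51 in SAHA, a difference of 0.69 ± 0.14. The dimmest read 6.51, 6.21 and 6.47 in DMSO and 5.46 and 5.34 in SAHA, a difference of -0.99 ± 0.11. Each of the 4 separated the groups without overlap and each was called, 3 higher and 1 lower. Averaged over the 4 probe sets the difference was 0.22 and STAT3 was not called. Over all 16 member probe sets 8 were called, 5 higher and 3 lower, where 22.1% of the 41091 probe sets with 1 gene were called.

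**Figure D2:**
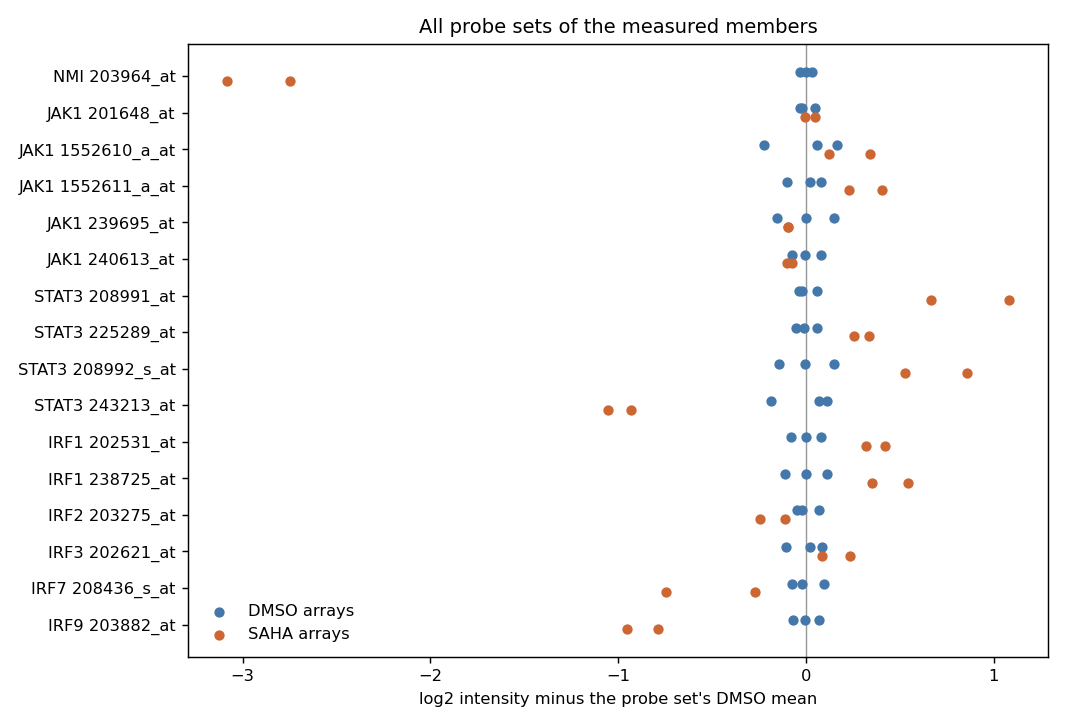
Each of the 16 member probe sets on its own row, with the log2 intensity of each array minus the probe set's DMSO mean on the x axis (blue, 3 DMSO arrays; orange, 2 SAHA arrays). STAT3 has 3 rows with SAHA above DMSO and 1 row, the dimmest, with SAHA below it at a difference of -0.99, while the 5 rows of JAK1 stay within 0.41 of 0 in the SAHA arrays.

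IRF9, the DNA-binding partner of STAT2, was lower under SAHA. The DMSO arrays stood at 9.45, 9.59 and 9.51, the SAHA arrays at 8.57 and 8.73. The groups did not overlap. The means were 9.52 ± 0.07 and 8.65 ± 0.12, and the difference of -0.87 ± 0.07 was 1.83-fold lower. With each array left out in turn the difference lay between -0.95 and -0.79, and IRF9 stayed called lower in each of these fits.

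IRF1, an activator induced by interferon gamma, was slightly higher. The DMSO arrays read 8.99, 9.07 and 9.15, and the SAHA arrays 9.39 and 9.49. The groups did not overlap. The difference was 0.37 ± 0.07, or 1.29-fold. Its second probe set read 8.80, 8.69 and 8.58 in DMSO and 9.04 and 9.23 in SAHA, a difference of 0.45 ± 0.10, called higher as well. Centred on the poly-A controls the difference of IRF1 was -0.0023 and not called. IRF1 was also no longer called without DMSO 2 (0.37), SAHA 1 (0.42) or SAHA 2 (0.32), and it stayed called without DMSO 1 (0.33).

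IRF2, which competes with IRF1 for the same DNA, read 9.33, 9.21 and 9.24 on the DMSO arrays, and 9.15 and 9.01 on the SAHA arrays. Both SAHA arrays lay below all DMSO arrays, by a small distance. The difference of -0.18 ± 0.06 was not called, and it was -0.55 and called lower when the arrays were centred on the poly-A controls.

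IRF3 and IRF7 are the factors that switch on interferon genes. IRF3 read 8.57, 8.77 and 8.70 in DMSO and 8.77 and 8.91 in SAHA, so the groups overlapped. Its difference of 0.16 ± 0.08 was not called, and centring on the poly-A controls turned it to -0.21, also not called. IRF7 read 7.90, 7.73 and 7.78 in DMSO and 7.06 and 7.54 in SAHA. Both SAHA arrays lay below DMSO, but they stood 0.48 apart from each other. The difference of -0.51 ± 0.16 was not called. IRF7 was called lower at -0.51 after repeated quantile normalization, at -0.50 centred on ribosomal protein genes, at -0.51 without dim genes and at -0.88 centred on the poly-A controls. Without SAHA 2 it was -0.75 and called lower, and without SAHA 1 it was -0.27 and not called.

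The other genes of the pathway were read from 10 lists grouped by role. Of 125 distinct genes measured, 60 were called, 20 higher and 40 lower, which is 48.0% where all genes gave 29.6%. Leaving out the targets of the complex of STAT2 and IRF9, 42 of 105 were called. Centred on the poly-A controls, 10 pathway genes were called higher and 92 lower, where all genes gave 1380 higher and 14740 lower in place of 2760 and 3089. Calls with this centring leave the shared error of the offset uncounted. Under that centring the calls were 1 higher and 9 lower among the other family genes, 2 and 11 among the inhibitors, and 1 and 12 among the targets of IRF1 and of interferon gamma signalling. Among the ligands 1 was called higher and 10 lower, among the partners of NMI 1 and 5, and among the sensors and kinases 14 were called lower. With 1 array left out, the called pathway genes ranged from 12 to 15 higher and from 24 to 33 lower, with 12 higher without SAHA 1 or SAHA 2, and with 24 lower without DMSO 3 and 26 without DMSO 1 or SAHA 1. All p-values below are from limma, adjusted over all 19775 genes.

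**Figure D3:**
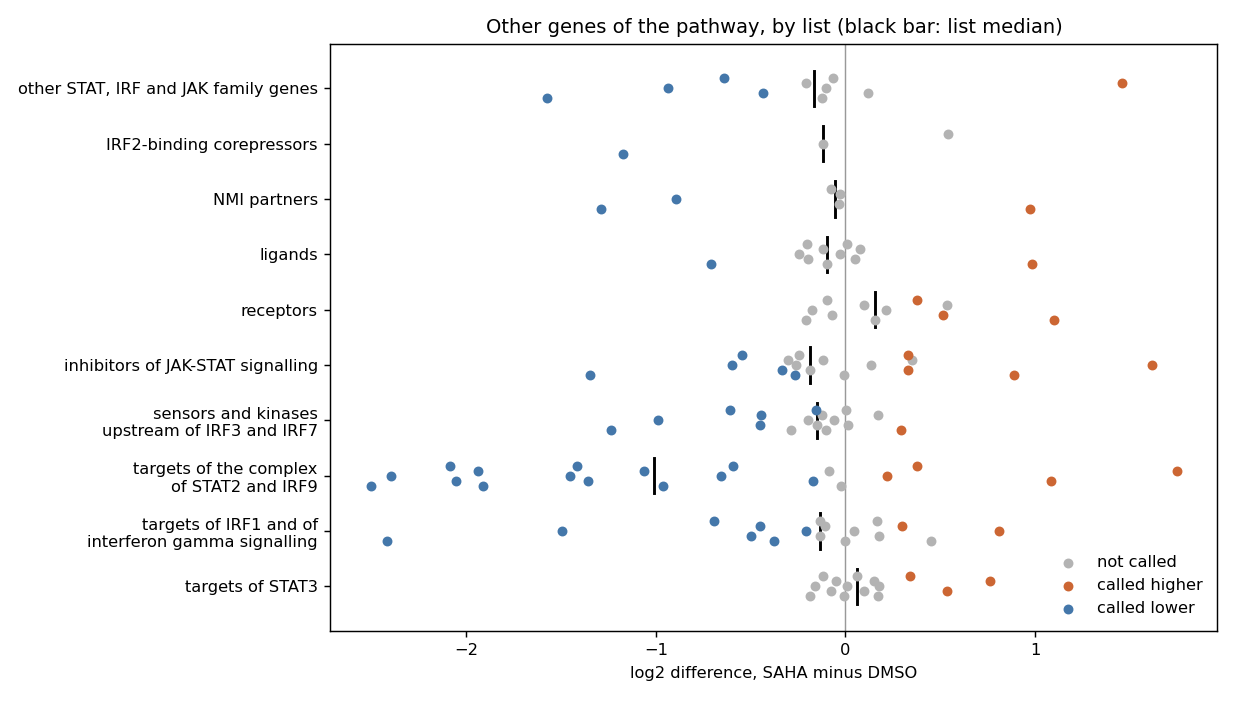
The log2 difference (SAHA minus DMSO, x axis) of every measured gene in the 10 lists, 1 point per gene, in orange where called higher, blue where called lower and grey where not called, with the list median as a black bar. The targets of the complex of STAT2 and IRF9 have a median of -1.01 and points from -2.50 to 1.75, and the other lists have medians between -0.19 and 0.15.

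Of 10 other STAT, IRF and JAK family genes measured, 1 rose and 4 fell, with a median of -0.17. STAT4, which carries IL12 signals, rose by 1.46 ± 0.09 (adjusted p = 0.00101). STAT6, which carries IL4 signals, fell from 10.90 ± 0.03 to 9.32 ± 0.14, a difference of -1.57 ± 0.07 (adjusted p = 0.000614). Both STAT5 genes fell, STAT5B by 0.94 ± 0.07 (adjusted p = 0.00139) and STAT5A by 0.64 ± 0.16 (adjusted p = 0.0449). The 5 probe sets of STAT5B averaged -0.33, still called lower. STAT5A was no longer called without DMSO 1 (-0.58), DMSO 2 (-0.68), DMSO 3 (-0.68) or SAHA 1 (-0.40), with adjusted p from 0.116 to 0.143. TYK2, the kinase that pairs with JAK1 on the interferon alpha receptor, was the other one called, at -0.44 ± 0.05 (adjusted p = 0.00451). It is named beyond the fixed rule because it partners a member.

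Of the 6 proteins listed as partners of NMI, 1 rose and 2 fell, with a median of -0.06. IFI35, an interferon-induced protein that forms a complex with NMI, fell by 0.89 ± 0.09 (adjusted p = 0.0032). BRCA1, a DNA repair protein, fell by 1.29 ± 0.08 (adjusted p = 0.00105), and its 2 probe sets averaged -0.84. MYC, the transcription factor, rose from 11.43 ± 0.19 to 12.41 ± 0.11, by 0.98 ± 0.13 (adjusted p = 0.0068). The call of MYC was lost without SAHA 1 (0.90, adjusted p = 0.0749) and without SAHA 2 (1.06, adjusted p = 0.0517). Of the 3 corepressors that bind IRF2, IRF2BPL fell by 1.18 ± 0.08 (adjusted p = 0.00121), and the other 2 were not called.

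Among 11 ligands measured, 1 rose and 1 fell, with a median of -0.10. IL6, the cytokine upstream of STAT3, rose by 0.99 ± 0.13 (adjusted p = 0.00722), and LIF, of the same family, fell by 0.71 ± 0.09 (adjusted p = 0.00613). Without SAHA 1 neither was called, IL6 at 0.87 (adjusted p = 0.0716) and LIF at -0.62 (adjusted p = 0.0582). Among 11 receptors 3 rose and 0 fell by limma, with a median of 0.15 (1 was lower at an unadjusted p under 0.05). Centred on the poly-A controls, 1 receptor was called higher and 5 lower, and without SAHA 2 1 was called lower. OSMR, the oncostatin M receptor, rose by 1.10 ± 0.06 (adjusted p = 0.000935). LIFR, the LIF receptor, rose by 0.52 ± 0.07 on its brightest probe set (adjusted p = 0.00705), and its 5 probe sets averaged 0.95, called higher. With the poly-A centring the brightest was at 0.14 and not called (adjusted p = 0.271). It was also not called without SAHA 1 (0.52) or SAHA 2 (0.51). IFNGR1, the interferon gamma receptor chain, rose by 0.38 ± 0.04 (adjusted p = 0.00326), but was at 0.00 and not called with the poly-A centring.

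Of 17 inhibitors of JAK-STAT signalling, 4 rose and 5 fell, with a median of -0.19. PTPN1, a phosphatase that acts on JAK kinases, rose by 1.62 ± 0.10 (adjusted p = 0.001), although its 4 probe sets averaged 0.38. SOCS1, which blocks JAK kinases, fell by 1.35 ± 0.09 (adjusted p = 0.00113), and its 4 probe sets averaged -0.44. SOCS5, another member of that family, rose by 0.89 ± 0.09 (adjusted p = 0.0032). USP18, which restrains the interferon alpha receptor, fell by 0.60 ± 0.10 (adjusted p = 0.0125). USP18 was not called without DMSO 1, DMSO 3, SAHA 1 or SAHA 2 (-0.69 to -0.51, adjusted p from 0.0507 to 0.0918). With 1 array left out, 2 to 3 inhibitors were called higher, the 2 without DMSO 2, and 1 to 4 lower, with 1 without DMSO 3 and 2 without DMSO 1, SAHA 1 or SAHA 2.

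Of 16 sensors and kinases upstream of IRF3 and IRF7, 1 rose and 6 fell, with a median of -0.15. RIGI, a sensor of viral RNA, fell from 11.09 ± 0.11 to 9.85 ± 0.12, a difference of -1.23 ± 0.09 (adjusted p = 0.00152). IRAK1, a kinase of Toll-like receptor signalling, fell by 0.99 ± 0.07 (adjusted p = 0.0013). IFIH1, a second RNA sensor, fell by 0.61 ± 0.12 (adjusted p = 0.0204), and was called in none of the fits with 1 array left out (-0.74 to -0.48, adjusted p from 0.0561 to 0.102). CGAS, a sensor of DNA, fell by 0.45 ± 0.09 (adjusted p = 0.0221). The 3 probe sets of CGAS averaged -0.12, and the 3 of IFIH1 averaged -0.33. CGAS was not called without DMSO 2, DMSO 3, SAHA 1 or SAHA 2 (adjusted p from 0.0519 to 0.121). With 1 array left out, whichever it was, 2 to 3 sensors were called lower and the single rise was no longer called.

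The targets of the complex of STAT2 and IRF9 moved most among the lists, with 14 of 20 called lower, 4 called higher and a median of -1.01. RSAD2 (viperin), an antiviral enzyme, fell from 8.58 ± 0.02 to 6.07 ± 0.37, a difference of -2.50 ± 0.16 (adjusted p = 0.0011). HERC6, a ubiquitin ligase family gene, fell by 2.40 ± 0.08 (adjusted p = 0.000491), and its 2 probe sets averaged -1.29. IFIT2 fell by 2.09 ± 0.22 (adjusted p = 0.00341) and IFIT3 fell by 2.05 ± 0.11 (adjusted p = 0.000768), both interferon-induced proteins with tetratricopeptide repeats. The 4 that rose were IFI6 (1.75 ± 0.11, adjusted p = 0.00105), SAMD9 (1.09 ± 0.11, adjusted p = 0.00331), IFIT5 (0.38, adjusted p = 0.0203) and OAS1 (0.22, adjusted p = 0.0402), named after their values were seen. With the poly-A centring, IFIT5 was at 0.0061 and OAS1 at -0.16, neither called, and 16 targets were called lower and 2 higher. IFIT5 was not called without DMSO 1, DMSO 3, SAHA 1 or SAHA 2 (adjusted p from 0.0521 to 0.106), nor OAS1 without DMSO 2, DMSO 3, SAHA 1 or SAHA 2 (adjusted p from 0.0953 to 0.148). With 1 array left out, 12 to 13 targets were called lower and 2 to 3 higher, with 2 higher without DMSO 3, SAHA 1 or SAHA 2.

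Of the 11 targets called lower that had a promoter entry, 9 held the ISRE letters, and so did 3 of the 4 called higher. The list holds targets of the complex that binds this element, so a high share is built into the choice. A gene was counted if any of its start sites matched, while the 3.57% given for all promoters is per window. Identical matched letters occurred on both sides, as 50-base stretches around the match show. DDX60 differed by -1.45, RSAD2 by -2.50 and IFI44 by -1.91, while SAMD9 differed by 1.09. These 4 were chosen after their values were seen, and the match is in capitals. For RSAD2 the distance is from start site 2, and the window of start site 1 held no match. For IFI44 the distance is from start site 1, and the same match lies 60 bases before start site 2.
DDX60 (fell, 88 bases before the start, chr4:168318811-168318860, minus strand): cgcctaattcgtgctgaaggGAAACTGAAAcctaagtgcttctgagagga
SAMD9 (rose, 136 bases before the start, chr7:93118086-93118135, minus strand): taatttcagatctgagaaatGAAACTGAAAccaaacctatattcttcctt
RSAD2 (fell, 145 bases before the start, chr2:6877612-6877661, plus strand): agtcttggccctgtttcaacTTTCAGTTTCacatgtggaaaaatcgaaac
IFI44 (fell, 18 bases before the start, chr1:78649751-78649800, plus strand): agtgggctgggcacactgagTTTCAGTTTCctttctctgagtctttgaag
DDX60 and SAMD9 share the letters GAAACTGAAA, and RSAD2 and IFI44 share TTTCAGTTTC, the same letters read on the other strand.

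Of 17 targets of IRF1 and of interferon gamma signalling, 2 rose and 7 fell, with a median of -0.13. PSMB10, a subunit of the immunoproteasome, fell by 2.42 ± 0.11 (adjusted p = 0.000611). CXCL11, a chemokine, fell by 1.49 ± 0.26 (adjusted p = 0.0152) from a dim 5.37 ± 0.11, was at -0.56 on its other probe set, and was not called without DMSO 1, DMSO 2 or DMSO 3 (-1.53 to -1.43, adjusted p from 0.0646 to 0.0778). GBP2, a guanylate-binding protein, rose by 0.81 ± 0.09 (adjusted p = 0.00431). APOL6 fell by 0.69 ± 0.14 (adjusted p = 0.0255), and was not called without DMSO 1, DMSO 2, DMSO 3 or SAHA 1 (adjusted p from 0.0749 to 0.104). With 1 array left out, 1 to 4 of these targets were called lower, with 1 without DMSO 1, 2 without DMSO 3 or SAHA 1, 3 without SAHA 2 and 4 without DMSO 2. Without any one of the DMSO arrays 1 was called higher.

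Of 15 targets of STAT3, 3 rose and 0 fell by limma, with a median of 0.06 (0 were lower at an unadjusted p under 0.05). Centred on the poly-A controls, 1 target of STAT3 was called higher and 9 lower, and without SAHA 2 1 was called lower. BCL6, a transcriptional repressor, rose by 0.76 ± 0.09 (adjusted p = 0.00534), and was not called without SAHA 1 (0.72, adjusted p = 0.063). JUNB, a subunit of AP-1, rose by 0.54 ± 0.12 (adjusted p = 0.0343), and MUC1, a mucin, by 0.34 ± 0.07 (adjusted p = 0.0222). JUNB was not called without DMSO 1, DMSO 3, SAHA 1 or SAHA 2 (adjusted p from 0.075 to 0.172), nor with the poly-A centring (0.16, adjusted p = 0.206). MUC1 was not called without DMSO 1, SAHA 1 or SAHA 2 (adjusted p from 0.074 to 0.112) and was at -0.03 with the poly-A centring. Without SAHA 1, 0 targets of STAT3 were called higher by limma, and 1 without DMSO 1 or SAHA 2 (without SAHA 1, 3 were higher at an unadjusted p under 0.05).

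The profiles most like that of NMI were found over the 5 arrays among 19774 other genes, as the Euclidean distance between log2 profiles, each centred on its own DMSO mean. The nearest were TYMS, thymidylate synthase (distance 0.449), IGFBP1 (0.451), FAM169A (0.605), GTF3C6, a subunit of RNA polymerase III factor TFIIIC (0.633), and DRC8, a dynein regulatory complex gene (0.699). A flat profile would lie at 4.13, and the median gene lay at 4.09. TYMS read 13.23, 13.27 and 13.28 with DMSO, then 10.70 and 10.58 with SAHA. These genes are near NMI because they fell by a like amount on both SAHA arrays, from -2.48 to -2.69. The probe sets of TYMS averaged -1.86, of IGFBP1 -1.31, of FAM169A -1.51 and of DRC8 -0.90.

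Of the 6 measured neighbours of NMI on chromosome 2, 1 was called higher, and RBM43 came nearest to the threshold among the others. On the side of RBM43 the next genes were RBM43, LINC01920 and RND3, and on the other side LOC101929319, TNFAIP6 and RIF1. RBM43, an RNA-binding protein gene next to NMI, read 6.48, 6.22 and 6.39 in DMSO and 5.27 and 5.90 in SAHA, a difference of -0.78 ± 0.21 that narrowly missed the threshold (adjusted p = 0.0504). RND3, a small GTPase, rose by 0.95 ± 0.06 (adjusted p = 0.00115). RIF1, a protein of replication timing and DNA repair, differed by -0.24 ± 0.11 (adjusted p = 0.192). LINC01920 (-0.09), LOC101929319 (-0.03) and TNFAIP6 (0.10) read at most 5.21 on every array and were not called, and TNFAIP6 was at -0.28 and called lower with the poly-A centring (adjusted p = 0.0304).

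**Figure D4:**
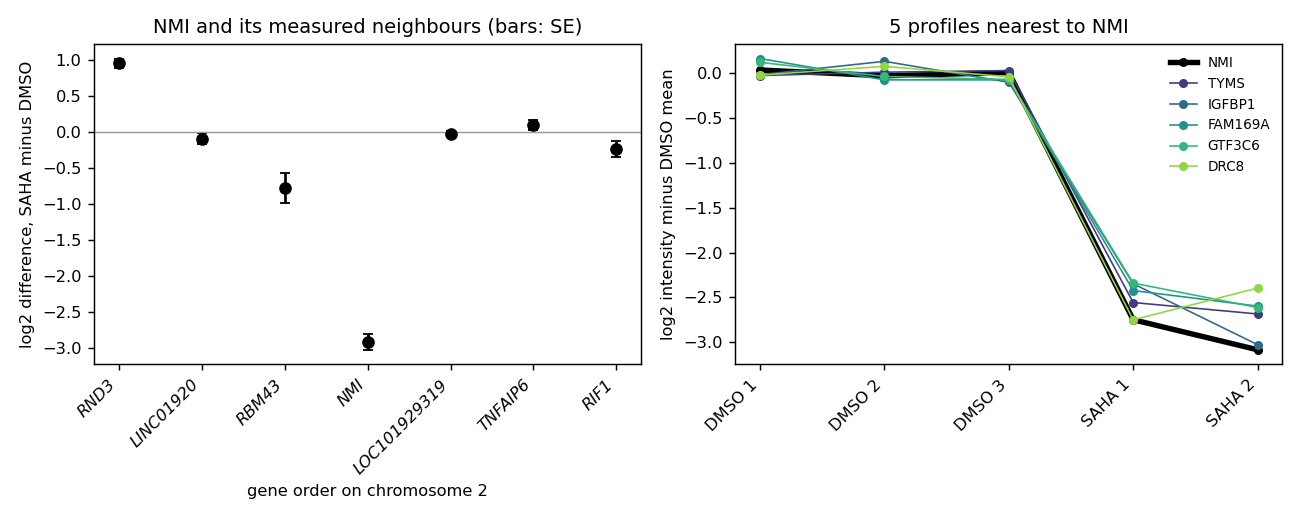
Left, the log2 difference (SAHA minus DMSO, bars are SE) of NMI and 3 measured genes on each side in gene order: NMI is at -2.91, RBM43 at -0.78 and RND3 at 0.95. Right, the log2 intensity minus the DMSO mean on each of the 5 arrays for NMI (thick line) and the 5 genes nearest to it, all between -3.08 and -2.34 on the SAHA arrays.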

How the data were processed

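The authors deposited intensity values on a linear scale for 54675 probe sets, obtained by RMA run in R 2.12 per the submitters' processing notes. RMA equalises the arrays' distributions, and a general rise or fall of transcripts would be lost in it. Log2 was taken here, with no further normalization and no filter on level. Of the probe sets, 62 were controls, 41091 had 1 gene, 1801 several and 11721 none in the annotation. Each gene was read from its brightest probe set, judged by the mean over all arrays. SAHA (2 arrays) was compared with DMSO (3 arrays) using limma 3.58.1 under R 4.3.3 (lmFit, eBayes, 3 residual and 1.62 prior degrees of freedom, tables read with data.table, version 1.17.8), two-sided, with Benjamini-Hochberg adjustment over all 19775 genes. Called means an adjusted p under 0.05. The fit was checked on simulated data. Figures were drawn with matplotlib 3.10.9.

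The members and lists were chosen with earlier results of these data known. Members were named always, then up to 4 called genes per list by size of difference, 5 nearest profiles and 3 measured neighbours on each side of NMI. Promoters came from RefSeq, and the gene order of NMI's neighbours from a RefSeq gene table. Alternatives covered scaling, dim genes, probe set choice, variance model, array weights, threshold, a replicate block and each array left out.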

Additional observations from a re-analysis of the deposited data

How the results depend on the processing

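NMI was selected on its fold in this comparison, so its calls under the alternatives are no test of it. Its difference was -3.29 under the poly-A centring and -3.08 to -2.75 with each array left out. With the poly-A centring the adjusted p of TYMS by limma was 9.2e-25, against 0.00034 in the main fit. The estimate of variance thus differs between these 2 fits, and their counts of calls are not alike in strictness. The called genes, 5849 in all, were 16120 with the poly-A centring, 2578 with the replicate block, 3317 at an adjusted p under 0.01, and 3754 (without DMSO 3) to 5031 with each array left out. The called members, 4, were 2 (NMI and IRF9) with the replicate block, 6 with the poly-A centring, 5 with repeated quantile normalization, ribosomal centring or no dim genes, and 3 to 4 with each array left out. The called pathway genes, 60, were 102 with the poly-A centring, 39 without probe sets ending in _x_at or _s_at, 32 with the replicate block, 35 at an adjusted p under 0.01, and 38 to 45 with each array left out. The called probe sets, 9087, were 4181 at an adjusted p under 0.01 and 4889 to 7030 with each array left out. With the replicate block limma called 0 probe sets, with 10935 at an unadjusted p under 0.05. The block shares only 2 replicate numbers between the groups, sets DMSO 3 aside, and leaves fewer residual degrees of freedom. Deviations of same-numbered arrays correlated at 0.151 and -0.067 across genes. With 2 SAHA arrays the deviations of 1 mirror those of the other, so these values cannot decide whether the numbers pair the arrays. The main fit uses no pairing. Differences turned sign with the poly-A centring for IRF1 (-0.0023), IRF3 (-0.21), JAK1 (-0.35), MUC1 (-0.033), OAS1 (-0.16) and TNFAIP6 (-0.28). The difference of IFNGR1 turned sign on its probe set outside the _x_at and _s_at classes (-0.004). JAK1 also turned with repeated quantile normalization (-0.04) and without SAHA 1 (-0.005). Where not given by the construction of the alternative, the cause was not tested. With 5 arrays and no detection calls, small differences of dim probe sets are the least certain values here.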
